A study of Mus musculus with 6 samples.

Results

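Ubiquitin-conjugating enzymes, deubiquitinases and cullins were read in mouse hematopoietic stem cells of 2 side-population fractions, Lower-SP and Upper-SP. Members were the array's probe sets with a single gene symbol beginning with Ube2, Usp and a number, Otud, Uchl, or Cul and a number, without Ube2c, Usp18, Usp9x and Usp9y, and with 3 or more of their 6 array values above log2 4. By name, 238 of 45037 probe sets qualified, for 98 genes. Of these, 164 probe sets for 80 genes passed the level and were tested, among 19613 tested probe sets and 9460 tested genes in all. The rule names no difference between the fractions, but 5 of the member probe sets passed the level through the arrays of 1 fraction alone. The names also bring in Usp6nl, which encodes a Rab GTPase-activating protein and no deubiquitinase, and Ube2d-ps, a pseudogene.

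The Lower-SP cells and the Upper-SP cells both came from the bone marrow of male C57Bl/6 (CD45.1) mice aged 10 weeks. Both were sorted as Lineage-, Sca-1+, c-Kit+ cells and differed in the part of the side population they lay in, a region of the flow cytometry plot defined by low retention of a DNA-binding dye. Each fraction has 3 arrays from pooled mice sorted on different days, with a purity above 98% when run through the sorter again and RNA amplified through 2 rounds of in vitro transcription. Values are log2 intensities after GCRMA, a background correction and normalization for Affymetrix arrays, and every difference below is Lower-SP minus Upper-SP on that scale.

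Ubiquitin is attached to proteins by a relay of an activating enzyme (E1), a conjugating enzyme (E2, the Ube2 genes) and a ligase (E3), and deubiquitinases of the Usp, Otud and Uchl families take it off again. Cullins are the scaffolds of a large class of ligases, and they are switched on by the ubiquitin-like protein Nedd8 and switched off by the COP9 signalosome. Ubiquitin chains send proteins to the proteasome or change their activity, and single ubiquitins on histones mark chromatin; the histone deubiquitinases Usp3 and Usp16 and the Usp1, Usp7 and Usp10 enzymes have been studied in mouse blood stem cells.

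Across probe sets, the correlation between arrays was 0.952 to 0.991 in the same fraction and 0.911 to 0.938 in different ones. Of 10 HSC marker genes 9 were matched and all 9 were tested; Kit and Abcg2 passed as lower in Lower-SP. Of 10 neutrophil markers 8 were tested, 4 passed as higher and 1 as lower, and their summed log2 level was 57.7 to 89.5 on the Lower-SP arrays and 46.6 to 57.0 on the Upper-SP arrays, with Elane under log2 4 on every array. Of 14 mitosis genes 13 were tested and 4 passed as higher, with a summed log2 level of 89.1 to 106 in Lower-SP and 85.8 to 87.9 in Upper-SP. Lower-SP replicate 3 was the lowest Lower-SP array on both lists, near the Upper-SP arrays. On the neutrophil list Upper-SP replicate 3 was likewise the lowest Upper-SP array, at 46.6. All 5 T cell markers and the 3 matched erythroid markers were under log2 4 on every array, and 0 of 4 matched B cell markers passed. Of 5 plasma cell markers 2 were tested and 1 passed as lower, with a summed log2 level of 14.7 to 22.4 in Lower-SP and 24.7 to 26.6 in Upper-SP. The part of these markers in the results below was not tested, and in sorted bulk RNA fewer cells of a kind and less RNA per cell cannot be told apart.

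Read through each gene's brightest tested probe set, 9 of the 80 member genes passed as higher in Lower-SP, 12 passed as lower and 59 did not pass. The called share was 26.25%, and over all tested genes it was 27.7%, with 7.05% higher and 20.7% lower. The median log2 difference of the members was -0.02, where that of all tested genes was -0.24. The groups did not overlap for 41 member genes, 23 of them higher and 18 lower, which is 51.25% of the members, and did not overlap for 45.7% of all tested genes, 13.4% higher and 32.3% lower. The split between higher and lower depended on the scaling, with 18 member genes higher and 6 lower after cyclic loess, 16 and 8 after quantile normalization, and 13 and 10 after centring on the median. Of all tested genes 10.2% were higher and 13.8% lower after cyclic loess, 8.86% and 16.5% after quantile normalization, and 8.38% and 17.4% after centring. All 9 raised genes passed under each of these scalings, and of the 12 lowered genes Ube2e1, Ube2e3, Ube2q1, Usp5, Usp21 and Usp48 did.

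**Figure D1:**
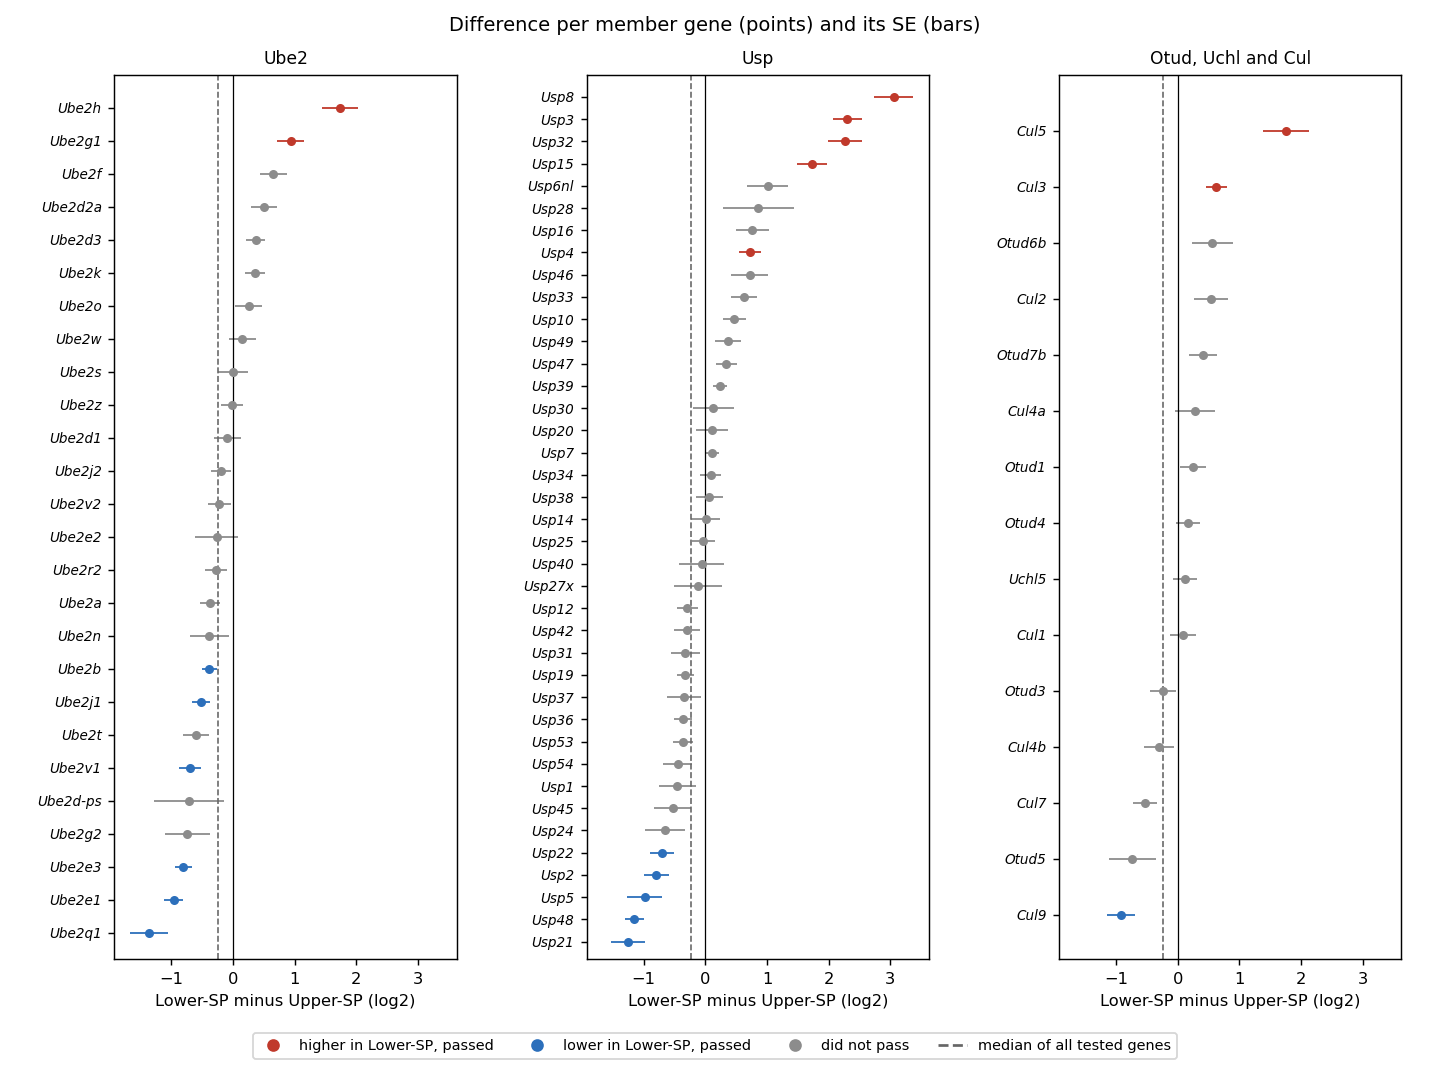
Log2 difference, Lower-SP minus Upper-SP, of each of the 80 tested member genes at its brightest probe set, by family, with bars of 1 SE to each side; coloured points passed at an adjusted p of 0.05, and the dashed line is the median of all tested genes. The Usp family spreads furthest upward, to 3.05 for Usp8, and the lowest point is Ube2q1 at -1.36.

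Promoter windows of 300 bases around the listed gene start, from RefSeq on build GRCm38.p6, were matched to 63 of the 80 member genes. The 4 shown are those of the member genes with the widest differences in each direction that had a promoter listed: Usp8 (chr2:126707078-126707377, plus strand), Usp3 (chr9:66593066-66593365, minus strand), Ube2q1 (chr3:89773359-89773658, plus strand) and Usp21 (chr1:171287912-171288211, minus strand). They are written 5′ to 3′ on the gene's strand, and capitals mark matches, on either strand, to the 7 motifs searched: the GC box GGGCGG, the CCAAT box CCAAT, the ETS core CCGGAAG, the NRF1 motif, the YY1 motif AAGATGG, the TATA box TATAAA and the cyclic AMP response element TGACGTCA.
Usp8: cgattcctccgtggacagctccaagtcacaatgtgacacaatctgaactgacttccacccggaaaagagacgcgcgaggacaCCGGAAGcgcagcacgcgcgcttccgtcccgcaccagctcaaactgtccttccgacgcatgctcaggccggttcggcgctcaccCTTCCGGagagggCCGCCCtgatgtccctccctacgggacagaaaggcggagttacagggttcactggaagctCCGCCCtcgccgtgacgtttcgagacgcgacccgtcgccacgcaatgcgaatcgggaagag
Usp3: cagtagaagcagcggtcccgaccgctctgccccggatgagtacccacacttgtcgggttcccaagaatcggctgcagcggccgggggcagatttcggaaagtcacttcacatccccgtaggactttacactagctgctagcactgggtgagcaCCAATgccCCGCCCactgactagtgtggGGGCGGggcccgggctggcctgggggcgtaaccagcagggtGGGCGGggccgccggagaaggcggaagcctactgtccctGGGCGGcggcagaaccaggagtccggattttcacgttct
Ube2q1: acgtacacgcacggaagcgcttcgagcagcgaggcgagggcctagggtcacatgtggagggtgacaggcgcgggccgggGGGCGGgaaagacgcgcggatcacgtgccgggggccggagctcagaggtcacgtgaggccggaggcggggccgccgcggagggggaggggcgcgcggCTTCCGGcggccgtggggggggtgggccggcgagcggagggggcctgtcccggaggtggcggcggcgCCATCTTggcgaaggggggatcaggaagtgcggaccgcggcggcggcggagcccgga
Usp21: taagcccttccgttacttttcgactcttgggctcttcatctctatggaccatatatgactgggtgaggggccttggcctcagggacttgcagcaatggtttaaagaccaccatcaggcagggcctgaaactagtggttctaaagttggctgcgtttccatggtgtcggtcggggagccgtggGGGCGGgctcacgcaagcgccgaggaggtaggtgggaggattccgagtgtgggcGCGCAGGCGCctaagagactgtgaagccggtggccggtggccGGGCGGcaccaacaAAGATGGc
None of these 4 holds TATAAA, and each holds the GC box at least once. The Ube2q1 and Usp21 windows hold the YY1 letters downstream of the GC box, and the Usp8 and Usp3 windows do not hold them.

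Over the member promoters, 49 of 63 held the GC box, or 77.8%, against 67.1% of the promoters of tested genes and 35.9% of all 27025 promoters. CCAAT was in 12 of 63, or 19.05%, against 38.5% and 37.9%. AAGATGG was in 11 of 63, or 17.5%, against 7.93% and 6.48%, and was in 5 of the 9 lowered genes with a promoter and 1 of the 9 raised. The GC box was in 6 of the 9 lowered and all 9 raised, and every other motif in 2 or fewer of either. Shares over all lowered or all raised tested genes are not given, so these small counts have no background beside them. The ETS core was in 20.6% of member promoters against 19.8% and 9.12%, and the NRF1 motif in 11.1% against 11.7% and 4.78%. TATAAA was in 6.35% against 6.55% and 14.2%, and TGACGTCA in 3.17% against 3.36% and 1.88%. The median GC content of the member promoters was 66.7%, that of tested genes 61.3% and that of all 52.7%. These are matches of letters, with no test of binding, and motifs and promoters were chosen after the differences were seen.

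Among the conjugating enzymes, 26 genes with Ube2 names were tested, and 2 passed as higher and 6 as lower, or 7.69% and 23.1%, near the 7.05% and 20.7% of all tested genes. Their median log2 difference of -0.24 was also that of all tested genes. Ube2q1, a conjugating enzyme of the Q class, had log2 levels of 8.23, 8.21 and 8.72 on the Lower-SP arrays, against 10.01, 10.18 and 9.05 on the Upper-SP arrays. All its Lower-SP arrays lay below all its Upper-SP arrays, and Upper-SP replicate 3 was the closest to them. The log2 difference was -1.36 (SE 0.31, 2.57-fold, adjusted p = 0.017), while its other tested probe set did not pass, at 0.46.

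Ube2e1 and Ube2e3 belong to the Ube2e class, whose members carry an amino-terminal extension ahead of the catalytic fold. Ube2e1 had log2 levels of 10.87, 10.63 and 10.33 on the Lower-SP arrays, against 11.63, 11.50 and 11.58 on the Upper-SP arrays. Ube2e3 had 10.23, 10.41 and 10.16 on the Lower-SP arrays, against 11.18, 11.14 and 10.91 on the Upper-SP arrays. Neither gene overlapped between the fractions, and both passed with each array left out in turn. The log2 difference of Ube2e1 was -0.96 (SE 0.15, 1.94-fold, adjusted p = 0.0057) and that of Ube2e3 was -0.81 (SE 0.14, 1.75-fold, adjusted p = 0.0066). The third member, Ube2e2, did not pass at -0.26 (SE 0.35, adjusted p = 0.60). A second probe set of Ube2e1, named for a RefSeq mRNA, lay on the other side of 0 without passing, at 0.57.

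Ube2v1, the catalytically inactive partner with which Ube2n builds lysine 63-linked chains, was lower at both of its probe sets. The brighter gave log2 levels of 9.88, 10.09 and 9.79 on the Lower-SP arrays, against 10.83, 10.74 and 10.30 on the Upper-SP arrays, a log2 difference of -0.70 (SE 0.18, adjusted p = 0.024). The Lower-SP arrays were below the Upper-SP arrays at both, and the dimmer probe set differed by -0.96 (SE 0.22, adjusted p = 0.018). Ube2n itself did not pass at -0.38 (SE 0.31, adjusted p = 0.39), and Ube2v2, the other partner of Ube2n, had values around the level of testing and did not pass at -0.22 (SE 0.19, adjusted p = 0.40).

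The closely related Ube2a and Ube2b are the mammalian counterparts of yeast Rad6 and ubiquitinate histone H2B and PCNA. Ube2b was lower, with log2 levels of 10.87, 10.74 and 10.66 on the Lower-SP arrays, against 11.18, 11.20 and 11.03 on the Upper-SP arrays, and a log2 difference of -0.39 (SE 0.12, adjusted p = 0.048). Its fractions did not overlap, but the difference was the smallest among the called member genes. The other tested probe sets of Ube2b did not pass, at -0.48 and -0.24. Ube2a differed by -0.37 (SE 0.16, adjusted p = 0.13), which did not pass. Ube2j1, an endoplasmic reticulum-bound enzyme of protein quality control, was lower by the same measure at -0.52 (SE 0.15, adjusted p = 0.033). The other tested probe set of Ube2j1 did not pass, at -0.12. Ube2j2 did not pass at -0.19 (SE 0.16, adjusted p = 0.41). Ube2b, Ube2j1 and Ube2v1 did not pass after cyclic loess.

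Ube2h and Ube2g1 were the conjugating enzymes higher in Lower-SP. Ube2h, which works with the CTLH ligase and is known for its part in red cell maturation, had log2 levels of 9.85, 10.04 and 10.31 on the Lower-SP arrays, against 8.35, 7.75 and 8.91 on the Upper-SP arrays. Every Lower-SP array exceeded every Upper-SP array, with a log2 difference of 1.73 (SE 0.29, 3.32-fold, adjusted p = 0.0066). That probe set has a name ending in _x_at, which marks probes that may bind other transcripts, and the gene's other tested probe set did not pass at 0.43. Ube2g1, an enzyme that works with cullin ligases, averaged a log2 level of 8.45 ± 0.25 in Lower-SP against 7.51 ± 0.26 in Upper-SP (SD, n = 3 each). Its log2 difference was 0.94 (SE 0.22, adjusted p = 0.019), and it was the 1 raised member probe set among the 54 with a RefSeq or other cDNA accession.

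The Ube2d enzymes, promiscuous partners of many ligases, did not pass at their brightest probe sets. Ube2d3, one of the 3 member genes with the highest mean value, had a log2 difference of 0.37 (SE 0.15, adjusted p = 0.11), Ube2d2a of 0.50 (SE 0.21, adjusted p = 0.11) and Ube2d1 of -0.09 (SE 0.21, adjusted p = 0.78). Ube2d2a and Ube2d3 both passed as higher after cyclic loess. The conjugating enzymes of ubiquitin-like or alternative relays also did not pass: Ube2f, which conjugates Nedd8, at 0.66 (SE 0.21, adjusted p = 0.053), and Ube2z, which takes ubiquitin or Fat10 from Uba6, at -0.02 (SE 0.19, adjusted p = 0.96). The difference of Ube2z changed sign with the scaling, and Ube2f passed as higher after cyclic loess. The other tested ubiquitin-conjugating enzymes did not pass, with log2 differences between -0.74 for Ube2g2, an enzyme of endoplasmic reticulum quality control, and 0.36 for Ube2k, which builds lysine 48-linked chains and passed as higher after cyclic loess.

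The deubiquitinase families, counted by gene name and so with Usp6nl, held 46 tested genes. Of these 5 passed as higher and 5 as lower, or 10.9% and 10.9%, where all tested genes gave 7.05% and 20.7%. Their median log2 difference was 0.08. Usp8, an endosomal deubiquitinase that acts on receptors sorted for degradation, showed the widest difference of all members. Its log2 levels were 8.51, 8.14 and 7.53 on the Lower-SP arrays, against 5.34, 5.09 and 4.60 on the Upper-SP arrays. The lowest Lower-SP array stood well above the highest Upper-SP array. The means were 8.06 ± 0.50 in Lower-SP against 5.01 ± 0.37 in Upper-SP (SD, n = 3 each) and the log2 difference 3.05 (SE 0.32, 8.29-fold, adjusted p = 0.002). The other tested probe set of Usp8 differed by 0.02.

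Usp3, which removes ubiquitin from histones H2A and H2B, had log2 levels of 10.25, 9.91 and 10.16 on the Lower-SP arrays, against 7.97, 7.33 and 8.11 on the Upper-SP arrays. The fractions were far apart relative to their spread, with means of 10.11 ± 0.17 in Lower-SP against 7.80 ± 0.42 in Upper-SP (SD, n = 3 each) and a log2 difference of 2.30 (SE 0.23, 4.94-fold, adjusted p = 0.0018). The other 3 tested probe sets of Usp3 did not pass and were on the other side of 0, at -0.27, -0.65 and -0.42. Usp32, a Golgi-associated deubiquitinase that acts on Rab7, had log2 levels of 10.54, 10.04 and 10.40 on the Lower-SP arrays, against 8.05, 7.54 and 8.59 on the Upper-SP arrays, without overlap and with a log2 difference of 2.27 (SE 0.28, 4.81-fold, adjusted p = 0.0029). A second probe set of Usp32 was also higher, at 1.24, and the last tested one differed by 0.03.

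Usp15, which among other substrates deubiquitinates SMADs and the TGF-beta receptor, had log2 levels of 6.13, 5.37 and 5.75 on the Lower-SP arrays, against 3.97, 4.04 and 4.06 on the Upper-SP arrays. The Upper-SP values lay at the level of testing and the Lower-SP values above it. The log2 difference was 1.72 (SE 0.25, 3.31-fold, adjusted p = 0.0043). It rests on the 1 tested probe set of Usp15. An untested one just under the level lay the other way, with overlap. Its log2 values were 3.90, 3.79 and 3.05 on the Lower-SP arrays, against 4.29, 4.36 and 3.79 on the Upper-SP arrays. The remaining untested probe sets of Usp15 had higher means in Lower-SP. Its close paralog Usp4 averaged a log2 level of 8.26 ± 0.06 in Lower-SP against 7.54 ± 0.13 in Upper-SP (SD, n = 3 each), a log2 difference of 0.72 (SE 0.18, adjusted p = 0.022), while the other tested probe set of Usp4 differed by -0.03. Usp3, Usp8, Usp15, Usp32 and Ube2h passed with each array left out in turn, and Usp4 did not.

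**Figure D2:**
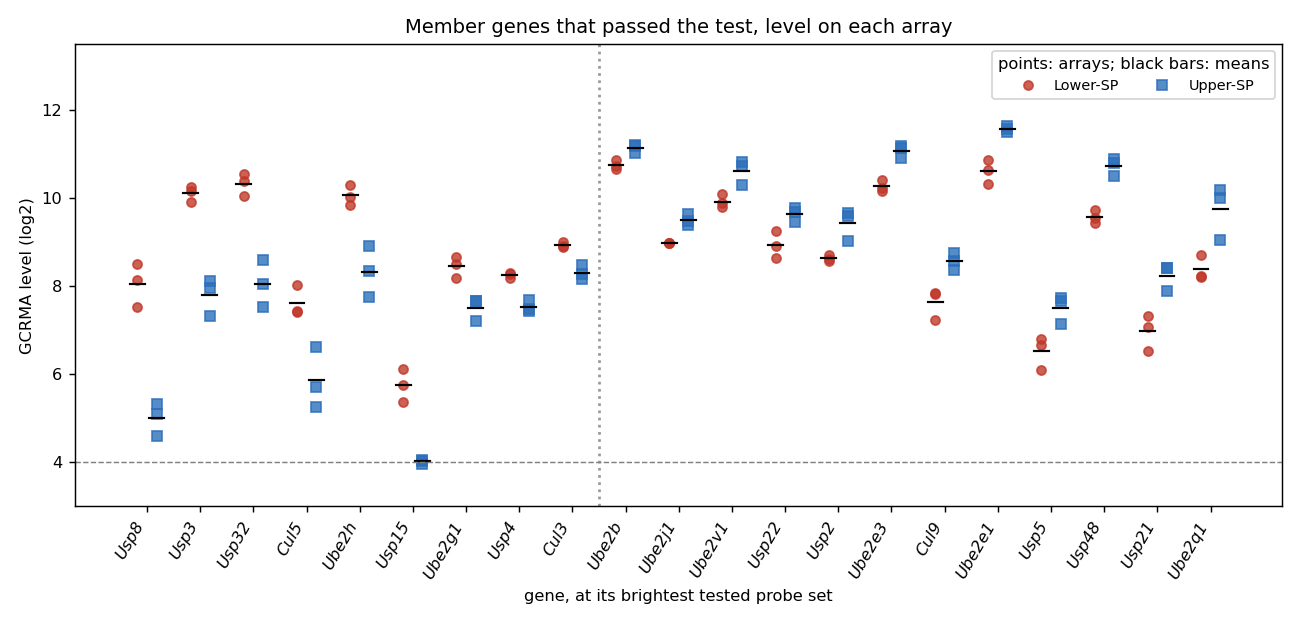
Log2 level on each array of the called member genes at their brightest probe sets, with the Lower-SP arrays (red circles) left of the Upper-SP arrays (blue squares), the group means as black bars and the level of testing as a dashed line. Usp8 has Lower-SP arrays at 7.53 to 8.51 and Upper-SP arrays at 4.60 to 5.34, and none of the genes drawn overlaps between the fractions.

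On the lower side, Usp21, a deubiquitinase of histone H2A, had log2 levels of 7.09, 7.33 and 6.52 on the Lower-SP arrays, against 8.41, 8.41 and 7.90 on the Upper-SP arrays. The Lower-SP arrays were all below the Upper-SP arrays, with a log2 difference of -1.26 (SE 0.27, 2.39-fold, adjusted p = 0.015). Usp48, a nuclear deubiquitinase whose targets include histone H2A sites used by Brca1, had log2 levels of 9.72, 9.55 and 9.43 on the Lower-SP arrays, against 10.79, 10.88 and 10.50 on the Upper-SP arrays. It had the smallest adjusted p among the lowered member genes, with a log2 difference of -1.15 (SE 0.16, 2.22-fold, adjusted p = 0.0036), and it passed with each array left out in turn. The other tested probe sets of Usp48 differed by 0.04 and -0.34.

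Usp5, which recycles free ubiquitin chains, had log2 levels of 6.67, 6.09 and 6.81 on the Lower-SP arrays, against 7.73, 7.67 and 7.14 on the Upper-SP arrays. The fractions did not overlap and differed by -0.99 (SE 0.28, adjusted p = 0.034). Usp2, a deubiquitinase with known targets in cell cycle and clock regulation, averaged 8.64 ± 0.06 in Lower-SP against 9.43 ± 0.35 in Upper-SP (log2 level, SD, n = 3 each). It differed by -0.80 (SE 0.20, adjusted p = 0.024), while its other tested probe set did not pass, at 0.01. Usp22, the deubiquitinase subunit of the SAGA coactivator, averaged 8.93 ± 0.31 in Lower-SP against 9.64 ± 0.17 in Upper-SP (log2 level, SD, n = 3 each) and differed by -0.71 (SE 0.20, adjusted p = 0.033). Usp2 and Usp22 did not pass after cyclic loess, and Usp5 passed under every scaling.

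Usp1, Usp7, Usp10 and Usp16, also studied in blood stem cells, did not pass at their brightest probe sets. Usp16, which removes ubiquitin from histone H2A, had log2 levels of 7.65, 7.41 and 7.76 on the Lower-SP arrays, against 6.91, 7.23 and 6.39 on the Upper-SP arrays. Its groups did not overlap, but its log2 difference of 0.76 (SE 0.26, adjusted p = 0.065) missed the threshold and passed after cyclic loess. Usp10, a deubiquitinase of p53, differed by 0.47 (SE 0.18, adjusted p = 0.093) and also passed after cyclic loess. Usp1, which deubiquitinates Fancd2, differed by -0.46 (SE 0.30, adjusted p = 0.28). Usp7, a deubiquitinase of p53 and Mdm2 and one of the 3 members with the highest mean value, differed by 0.10 (SE 0.11, adjusted p = 0.53), with log2 levels of 12.93, 12.87 and 13.09 on the Lower-SP arrays, against 13.00, 12.69 and 12.89 on the Upper-SP arrays, and the fractions overlapped. The remaining Usp genes did not pass either, with log2 differences between -0.66 for Usp24 and 1.01 for Usp6nl, and Usp6nl, Usp33 and Usp39 passed as higher after cyclic loess.

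The Otud family contributed 6 tested genes and the Uchl family 1, and none passed. The log2 differences of the Otud genes ran from -0.74 for Otud5, a regulator of interferon and inflammatory signalling, through -0.24 for Otud3, 0.17 for Otud4, 0.25 for Otud1 and 0.41 for Otud7b, up to 0.56 for Otud6b. Uchl5, a deubiquitinase of the proteasome and the INO80 complex, differed by 0.12 (SE 0.19, adjusted p = 0.67).

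Of 8 cullins tested, 2 passed as higher and 1 as lower, where 7.05% of all tested genes were higher and 20.7% lower, and their median log2 difference was 0.18. Cul5, the scaffold of ligases with SOCS-box adaptors, had log2 levels of 7.43, 7.41 and 8.02 on the Lower-SP arrays, against 5.72, 5.25 and 6.63 on the Upper-SP arrays. Upper-SP replicate 3 came nearest to the Lower-SP arrays without reaching them, and the log2 difference was 1.76 (SE 0.38, 3.38-fold, adjusted p = 0.014), with the other tested probe set at 0.34. Cul3, the scaffold of BTB-adaptor ligases such as the one that degrades Nrf2, was higher at both tested probe sets, at 0.63 (SE 0.16, adjusted p = 0.027) and 1.21 (SE 0.25, adjusted p = 0.013). It was the 1 member gene with several tested probe sets of which every one was raised. Cul9, an atypical cullin that binds p53, was lower at its brighter probe set, at -0.92 (SE 0.23, adjusted p = 0.023). Its dimmer probe set passed the level through the Upper-SP arrays alone, so it had to differ; with the Lower-SP arrays set to log2 4 it was at least 1.49-fold lower. Cul9 did not pass after cyclic loess. Cul1, the scaffold of the SCF ligases, differed by 0.09 (SE 0.21, adjusted p = 0.77), Cul2 by 0.54 (SE 0.27, adjusted p = 0.17), Cul4a by 0.28 (SE 0.32, adjusted p = 0.54), Cul4b by -0.30 (SE 0.25, adjusted p = 0.38) and Cul7 by -0.53 (SE 0.19, adjusted p = 0.072), and none of these passed.

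Of the 80 member genes, 50 had several tested probe sets, and the probe sets of 1 gene often differed. In 15 genes a raised probe set stood beside one that did not pass, and in 11 a lowered one did. No gene had probe sets called in opposite directions, but in 24 the signs of the log2 differences were not all the same, and the median distance between the highest and lowest difference of a gene was 0.91. Over all 164 probe sets, 19 passed as higher and 19 as lower, among them 2 raised and 1 lowered that had reached the level in 1 fraction alone, which is 23.2% called against 28.1% of all tested probe sets, 10.7% of which were higher and 17.5% lower. Read through the most variable probe set of each gene, a choice that itself favours wide differences, 17 member genes were higher and 13 lower, where 33.0% of all tested genes passed, 10.1% higher and 22.9% lower. At a dimmer probe set 12 further genes passed while the brightest did not; they are named here after their values were seen.

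Among them 8 were higher, 6 of them at probe sets above the level in both fractions. Usp47 differed by 2.44 (SE 0.25, adjusted p = 0.0018) at its dimmer probe set and Usp36 by 1.78 (SE 0.19, adjusted p = 0.0022). Otud7b differed by 1.53 (SE 0.21, adjusted p = 0.0039), Usp53 by 1.499 (SE 0.22, adjusted p = 0.0045), Ube2f by 1.35 (SE 0.28, adjusted p = 0.012) and Usp37 by 1.08 (SE 0.25, adjusted p = 0.018). The dimmer probe sets of Usp24 and Usp46 passed the level through the Lower-SP arrays alone, so they had to differ; with the Upper-SP arrays set to log2 4 they were at least 2.75-fold and at least 1.63-fold higher. The 4 lowered in this way were Usp20 at -1.63 (SE 0.28, adjusted p = 0.0071), Usp19 at -1.36 (SE 0.33, adjusted p = 0.021) and -0.75 (SE 0.16, adjusted p = 0.014) at its dimmer probe sets, Ube2d3 at -0.94 (SE 0.24, adjusted p = 0.026) and Usp39 at -0.73 (SE 0.21, adjusted p = 0.035). At the brightest probe sets, which did not pass, the log2 differences of 7 of these 12 genes lay on the other side of 0: -0.66 for Usp24, -0.36 for Usp36, -0.36 for Usp53, -0.34 for Usp37, 0.11 for Usp20, 0.23 for Usp39 and 0.37 for Ube2d3.

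A grouping by the accession in the array annotation was made after these values were seen. Among 103 tested member probe sets named for an EST, a single-pass cDNA read, 16 passed as higher and 9 as lower, or 15.5% and 8.74%. Of all tested EST probe sets 25.8% passed, 11.8% higher and 14.1% lower. Among 54 named for a RefSeq or other cDNA sequence, 1 passed as higher and 10 as lower, or 1.85% and 18.5%. Of all such tested probe sets 29.0% passed, 4.66% higher and 24.4% lower. The remaining 7 had no listed accession, and those of Cul5 and Usp32 passed as higher. The brightest probe sets of Usp8 and Usp3 were both named for ESTs. Which transcripts these probe sets bind was not tested.

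**Figure D3:**
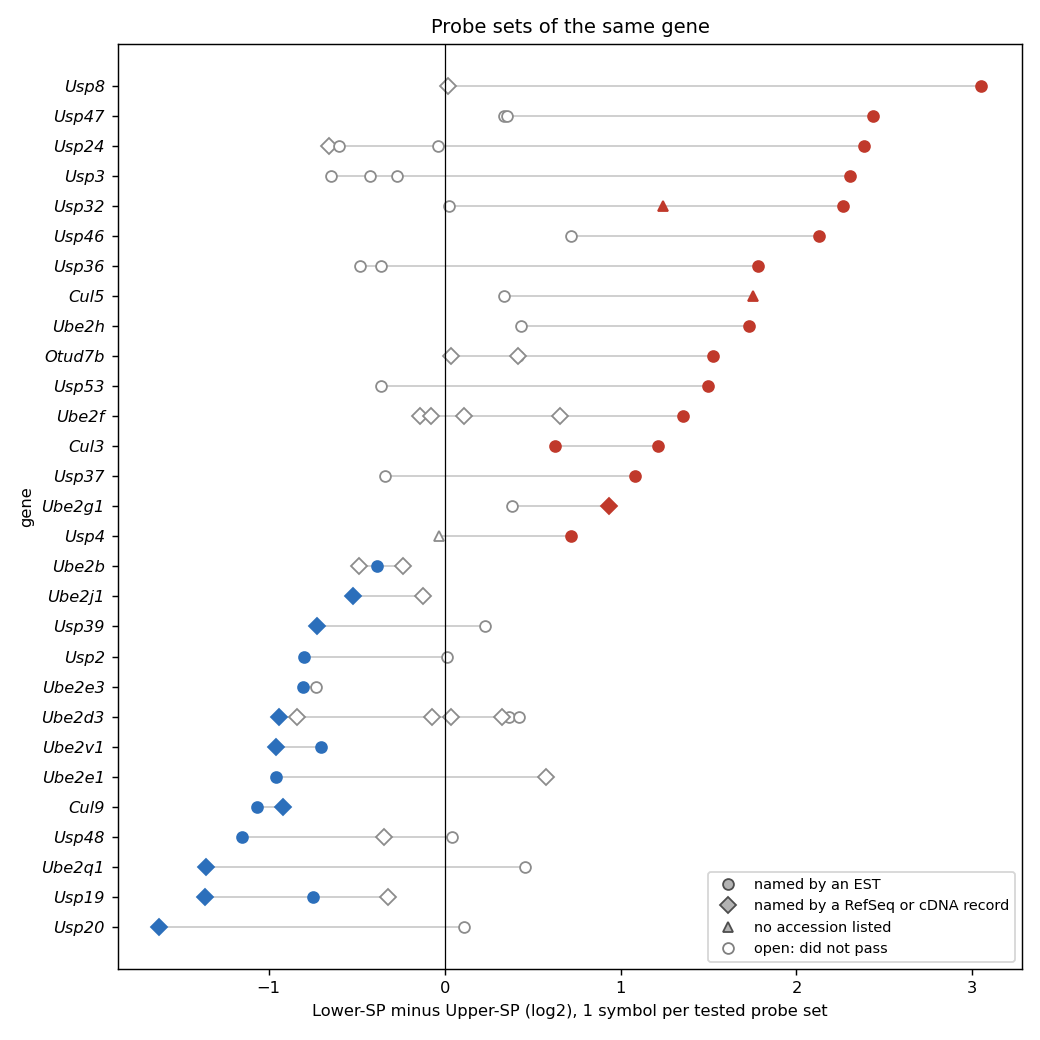
Log2 difference, Lower-SP minus Upper-SP, of every tested probe set of the member genes with several tested probe sets and at least 1 call; shapes give the kind of accession, filled symbols passed and open ones did not. Usp8 shows 1 probe set at 3.05 and another at 0.02, Usp3 has 1 raised and 3 below 0, and Cul3 has both of its probe sets raised.

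Part of the calls depended on single arrays. Of the 21 called member genes, 8 passed with each array left out in turn: Ube2e1, Ube2e3, Ube2h, Usp3, Usp8, Usp15, Usp32 and Usp48. Over these single omissions 5 to 10 member genes were higher and 3 to 14 lower, as the plot of counts shows. Leaving out Lower-SP replicate 1 gave 5 lower, leaving out Lower-SP replicate 2 gave 6, and leaving out Upper-SP replicate 2 gave 3. Without Upper-SP replicate 1, 5 were higher and 3 lower, where 7.35% of all tested genes passed, 2.85% higher and 4.49% lower. With all arrays 27.7% of all tested genes passed, so the fall in calls was not confined to the members. For the other single omissions the share of all tested genes is not given, and the member counts stand without that background. Without Lower-SP replicates 1 and 2, the arrays with the highest neutrophil and mitosis levels, 8 member genes were higher, 4 of them among the 9, and 6 were lower, 5 of them among the 12. All tested genes gave 4.32% higher and 8.33% lower there. The lone Lower-SP array is then assumed to vary like the other arrays.

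**Figure D4:**
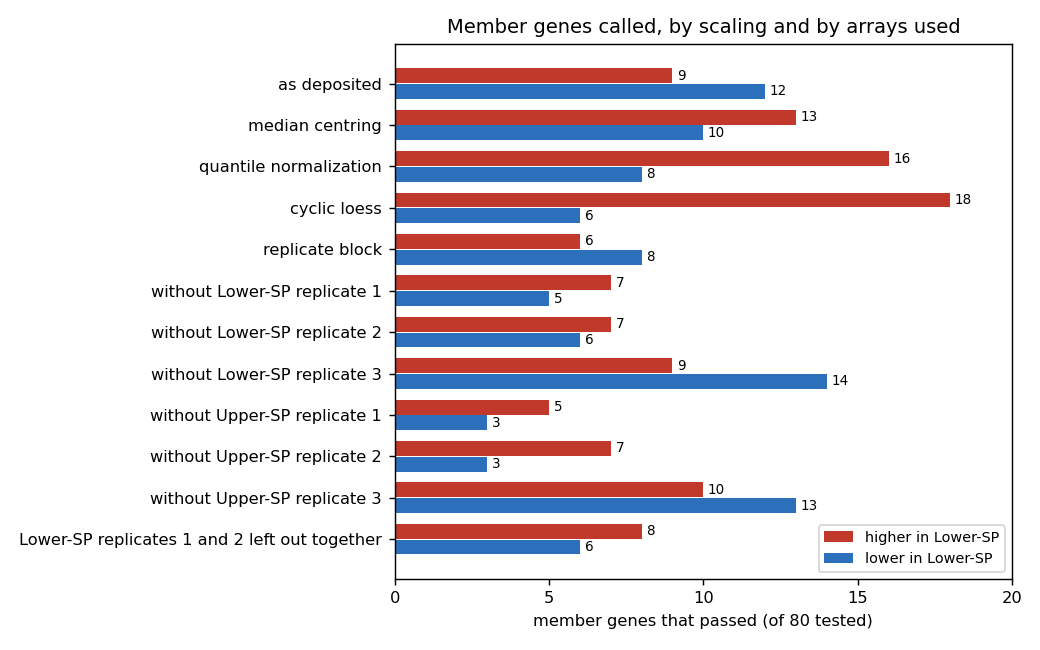
Number of member genes called higher (red) and lower (blue) in Lower-SP under each setting, out of 80 tested. With all 6 arrays and the deposited scaling there are 9 higher and 12 lower; cyclic loess gives 18 and 6.

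Beyond the members, 94 other genes of the pathway were listed, and 89 were tested: 8 passed as higher and 25 as lower, with a median log2 difference of -0.19, where 7.05% of all tested genes were higher and 20.7% lower. After cyclic loess 16 of them passed as lower. Among 7 activating enzymes 1 was higher and 2 lower. Uba7, the activating enzyme of the interferon-induced modifier Isg15, had a log2 difference of -1.14 (SE 0.24, adjusted p = 0.012). Sae1, a subunit of the SUMO activating enzyme, differed by -1.13 (SE 0.25, adjusted p = 0.015). Uba3, a subunit of the Nedd8 activating enzyme, was higher at 0.92 (SE 0.20, adjusted p = 0.015), but without the _x_at and _s_at probe sets its value was -0.20 and did not pass.

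Of 5 genes of ubiquitin and related modifiers, 3 were lower and 0 higher, where 20.7% of all tested genes were lower and 7.05% higher, and their median log2 difference was -0.79. Nedd8, the modifier of cullins, had log2 levels of 8.93, 9.15 and 9.17 on the Lower-SP arrays, against 10.00, 10.03 and 9.76 on the Upper-SP arrays. No Lower-SP array reached the Upper-SP range, and the log2 difference was -0.85 (SE 0.15, adjusted p = 0.0082). Sumo3 differed by -0.79 (SE 0.17, adjusted p = 0.015) and Fau, which encodes a ubiquitin-like protein fused to a ribosomal protein, by -0.54 (SE 0.09, adjusted p = 0.0058).

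Of 34 cullin partners, among them substrate adaptors and Nedd8-ligase components, 3 were higher and 7 lower, or 8.82% and 20.6%, near the 7.05% and 20.7% of all tested genes. Skp2, the F-box adaptor that targets the inhibitor p27, had log2 levels of 9.17, 9.08 and 9.32 on the Lower-SP arrays, against 7.36, 7.74 and 7.21 on the Upper-SP arrays. The groups did not overlap, and the log2 difference was 1.76 (SE 0.20, 3.38-fold, adjusted p = 0.0024). Eloc, the elongin C adaptor of Cul2 and Cul5 ligases, was higher at 1.05 (SE 0.16, adjusted p = 0.0049) and Fbxw11, an adaptor for beta-catenin, at 1.03 (SE 0.22, adjusted p = 0.013). Fbxo7, an F-box protein, was lower at -1.21 (SE 0.25, adjusted p = 0.012), Vhl, the adaptor for hypoxia-inducible factors, at -1.04 (SE 0.21, adjusted p = 0.012), and Ddb1, the adaptor of Cul4 ligases, at -1.001 (SE 0.16, adjusted p = 0.006).

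The COP9 signalosome, which strips Nedd8 from cullins, had 9 tested genes, of which 3 were lower and 1 higher, with a median log2 difference of -0.48, where 20.7% of all tested genes were lower and 7.05% higher. Gps1 had a log2 difference of -1.10 (SE 0.18, adjusted p = 0.0061), Cops6 of -1.03 (SE 0.25, adjusted p = 0.021) and Cops3 of -0.71 (SE 0.15, adjusted p = 0.014). Cops7b differed by 1.03 (SE 0.18, adjusted p = 0.0066) in the other direction. Of 27 deubiquitinases, SUMO proteases and related genes outside the member names, 2 were higher and 9 lower, or 7.41% and 33.3%. The lower ones include Eif3h at -0.89 and Eif3f at -0.28, which encode subunits of a translation initiation factor. Zranb1, also called Trabid, was higher at 1.03 (SE 0.14, adjusted p = 0.0039). Mysm1, a histone H2A deubiquitinase needed by mouse blood stem cells, was higher too, at 0.98 (SE 0.19, adjusted p = 0.0098). Otub1, which also blocks the conjugating enzyme Ube2n, was lower at -0.98 (SE 0.25, adjusted p = 0.026). Of 7 further E2 and E2-like genes, Ufc1, which conjugates Ufm1, was lower at -1.05 (SE 0.17, adjusted p = 0.006). Birc6, a large inhibitor of apoptosis with a conjugating domain, was higher at 1.09 (SE 0.16, adjusted p = 0.0049).

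By name 18 further genes had no tested probe set: Otud7a, Ube2cbp, Ube2d2b, Ube2l6, Ube2q2, Ube2ql1, Ube2u, Uchl1, Uchl4, Usp11, Usp13, Usp17la, Usp26, Usp29, Usp43, Usp44, Usp46os2 and Usp50. Of the 74 untested probe sets 59 were under log2 4 on all arrays. Just outside the level lay Ube2l6, where the third-highest log2 value was 3.91, and probe sets of Usp15, Otud4 and Ube2d2a, with 3.90, 3.84 and 3.81. Just inside lay probe sets of Usp46, Usp34, Ube2g1 and Ube2v2, with 4.01, 4.03, 4.05 and 4.11. Of the tested probe sets 146 were above log2 4 on all arrays. Through the Lower-SP arrays alone 4 passed the level, those of Usp24, Usp34, Usp46 and Ube2g1, and through the Upper-SP arrays alone 1 did, that of Cul9.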

How the data were processed

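The deposited table holds log2 values of 45101 probe sets on 6 Affymetrix arrays, made by the authors with GCRMA after GCOS 1.0, per the submitters' processing notes; parameters and a genome build are not given in the sources used here. After 64 control probe sets were left out, 34945 probe sets had 1 gene symbol, 932 several and 9160 none in the array annotation, and 34741 were matched by Entrez ID to current records. For arrays their number limits the precision. 

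Lower-SP was compared with Upper-SP in R 4.3.3 with limma 3.58.1 (lmFit, eBayes with a trend, two-sided) on the 19613 probe sets above log2 4 on at least 3 arrays, with Benjamini-Hochberg adjustment over all of them and a threshold of 0.05. Each gene is represented by its brightest tested probe set with 1 symbol. The replicate number was not used as a block, since no label ties it to a pool or day and the deviations of same-numbered arrays correlated at -0.05, -0.03 and -0.02. For folds given as "at least", each array value under log2 4 was set to 4 before the group means were taken. In simulated data, 19613 probe sets of which 200 were changed were tested the same way. The fit recovered 15% of changes of log2 1 and 68% of those of log2 2, and 1.19% of its calls were false. The simulated noise was drawn independently for each probe set, and in the data 5520 probe sets passed, far more than 200. These simulated shares therefore do not carry over to the calls made here.

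Members, lists, alternatives and named genes were chosen with earlier results of these data known. The text names up to 12 raised and up to 12 lowered member genes, those with the largest differences that passed without overlap, and the 3 with the highest mean. It also names all Cul, Otud and Uchl genes, the E2 genes of ubiquitin-like proteins, and fixed E2 paralogs and deubiquitinases. From each pathway list it takes up to 3 passing genes with the largest change. The pathway genes Fbxw11, Vhl, Ddb1, Cops3, Eif3h and Eif3f are named outside that choice. The pathway genes are lists of activating enzymes, ubiquitin and related genes, further E2 and E2-like genes, cullin partners, the COP9 signalosome and further deubiquitinases. Marker lists cover HSC, neutrophil, B cell, plasma cell, T cell, erythroid and mitosis genes. The accession grouping, promoter motifs and genes called at a dimmer probe set were chosen after seeing values. Alternatives were other filters, scalings, variance models, array weights, a fold minimum, other representatives, subsets of probe sets and arrays left out. The labels describe the replicates of each fraction as separate pools of mice.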

Additional observations from a re-analysis of the deposited data

How the results depend on the processing

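Counts below are of member genes, member probe sets and other pathway genes, in that order, where all arrays and the deposited scaling gave 9, 19 and 8 higher and 12, 19 and 25 lower in Lower-SP. With each array left out in turn they were 5 to 10, 11 to 22 and 5 to 12 higher and 3 to 14, 5 to 23 and 6 to 29 lower. No filter gave 4, 8 and 13 lower, unmoderated statistics 5, 8 and 9 lower, and a 2-fold minimum 3, 6 and 8 lower. Cyclic loess gave 18 higher and 6 lower genes, 31 higher and 12 lower probe sets and 16 lower pathway genes, and quantile normalization 16 higher genes. Array weights gave 16 higher and 26 lower genes, 36 higher and 44 lower probe sets and 39 lower pathway genes. RefSeq mRNA probe sets alone gave 1 higher and 2 lower among members and 1 higher and 10 lower pathway genes. The most variable probe set of each gene gave 17 higher genes. Without Lower-SP replicates 1 and 2 there were 6 lower genes and 5 higher and 5 lower pathway genes. Fewer arrays or probe sets enter the omissions and the RefSeq setting, and for the others the cause was not tested. Of all 9460 tested genes 7.05% were higher and 20.7% lower with the deposited scaling. A 2-fold minimum left 394 of them higher and 847 lower. Without Upper-SP replicate 1 the shares were 2.85% and 4.49%. Shares of all tested genes are not given for no filter, unmoderated statistics, array weights, RefSeq probe sets, the replicate block and the other single omissions. Member counts there cannot be set apart from changes over all genes.

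Some differences changed sign, and all but those of Ube2e1 and Uba3 had not passed. With single arrays left out, Cul1 ran between -0.15 and 0.22, Cul4a between -0.068 and 0.48, Ube2z between -0.092 and 0.0795 and Uchl5 between -0.047 and 0.25. With array weights Cul1 was -0.10 and Usp7 -0.051. Without Lower-SP replicates 1 and 2, Cul4b was 0.22, Otud3 0.075, Otud4 -0.048, Ube2e2 0.50, Uchl5 -0.14 and Ube2z 0.022. With RefSeq mRNA probe sets Ube2e1 was 0.57 and Ube2f -0.14. Ube2z was 0.077 with quantile normalization, 0.072 with centring and 0.17 with cyclic loess. Without probe sets named _x_at or _s_at Uba3 was -0.20. The median of all tested genes moved to -0.15 with centring and with quantile normalization and to -0.09 with cyclic loess.

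The replicate number as a block gave 6 member genes higher and 8 lower, 16 and 13 member probe sets, and 9 and 19 pathway genes; Cul3, Ube2g1, Usp4, Ube2b, Ube2j1, Usp5 and Usp22 were not called in that fit. The fractions came from pools sorted on separate days, and no label ties an array number to a pool or day. Whether the numbers pair the samples is therefore not known from the labels. Over all tested probe sets the deviations of same-numbered arrays were close to uncorrelated, which does not exclude a shared pool or day. Replicate 3 had the lowest summed neutrophil level in both fractions, 57.7 in Lower-SP and 46.6 in Upper-SP. Its summed plasma cell level was also the lowest in both, 14.7 and 24.7. On the mitosis list it was the lowest in Lower-SP only.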

Other observations

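Probe sets annotated to several genes were outside the member rule, and 9 of them carry a Ube2, Usp or Uchl name. The probe set shared by Uchl3, a ubiquitin hydrolase, and its close copy Uchl4 had log2 levels of 6.31, 7.49 and 7.29 on the Lower-SP arrays, against 5.85, 5.90 and 5.54 on the Upper-SP arrays. The Lower-SP arrays were all above the Upper-SP arrays, with a log2 difference of 1.27 (SE 0.34, adjusted p = 0.028 by limma), and the signals of the 2 genes cannot be told apart. Ube2l3, a conjugating enzyme used by HECT and RBR ligases, shared 4 probe sets with predicted gene copies. Of these 1 passed as lower, at -0.61 (adjusted p = 0.041), and the others differed by -0.31, 0.13 and 0.46 without passing. The probe set shared by Usp50 and Polr2l differed by -0.79 (adjusted p = 0.050) and missed the threshold.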
